A study of Gallus gallus with 2 samples.

Results

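The endothelin genes described here were the ligand EDN1, its receptors EDNRA and EDNRB, and the converting enzyme ECE1, 4 genes of 16737 with values in both libraries. They were chosen by gene symbol and with earlier results of these data known, so their ranks among all genes are description only. The files gave 3 of the 4 under these symbols and ECE1 as ECE-1, a synonym that a RefSeq gene table pairs with ECE1. Each stood on 1 row of the files. In the hearts exposed to a nitric oxide (NO) donor, EDN1 and EDNRA were each over 3 times as abundant as in the vehicle hearts, while EDNRB and ECE1 were slightly less abundant and not called different.

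RNA was sequenced from hearts of chicken (Gallus gallus) embryos. Eggs described as brown leg horn were kept at 37 °C for 24 h and then received a single dose of 20 µl into the air sac, either 1X PBS (phosphate-buffered saline, the vehicle) or spermine NONOate at 10 µM, a compound that releases NO and leaves the polyamine spermine. Hearts were removed at 45 h, a time that may count from setting the eggs or from dosing, since the labels are unclear, and 10 hearts of each group were pooled. Each group was thus 1 pool and 1 library, named the PBS library and the NONOate library, so no difference had a replicate check, and no test was possible. Neither group received spermine without NO.

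Endothelins are short vasoactive peptides cut from longer precursors. Furin-like convertases release an inactive intermediate called big endothelin, and endothelin-converting enzymes, of which ECE1 is the best known, cut it to the active peptide. The peptides act on G protein-coupled receptors. The A receptor prefers the product of EDN1 to that of EDN3, while the B receptor binds all endothelins about equally. In vertebrate embryos, endothelin 1 acts through the A receptor on the neural crest of the pharyngeal arches and on the great arteries of the heart, and endothelin 3 acts through B receptors on the crest cells that form pigment cells and gut neurons. In the chick heart, endothelin signalling is also known for turning muscle cells along the coronary arteries into conducting Purkinje fibres, a later event than the stage sampled here.

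Levels were the authors' FPKM (fragments mapped to a gene, divided by transcript length and by library size) with their 95% intervals, which cover the estimation within 1 library and not the spread between pools of hearts. Because FPKM is per length, levels of different genes were set side by side, as far as the annotated transcript lengths hold. The intervals do not cover errors in those lengths. Differences are given as the log2 of FPKM + 1 in the NONOate library minus that in the PBS library, and a gene was called higher or lower when it differed at least 1.5-fold on that scale. Of 10824 measured genes, those whose 2 levels averaged 1 FPKM or more, 1038 (9.59%) were higher in the NONOate library and 2420 (22.4%) lower. The split shifts with the scaling between libraries, from 30.02% of the calls being higher as deposited to 46.3% after trimmed mean scaling and 44.8% after upper quartile scaling. These scalings add 0.19 and 0.17 to the log2 difference of an abundant gene. The median gene lay at −0.11. All 4 endothelin genes were measured, and 2 of them were called, both higher, where 31.9% of all measured genes were called in either direction. Both libraries held heart muscle transcripts, as their label says. Genes listed as markers of tissues outside the heart were also present, with higher sums in the PBS library. Neural tissue markers summed to 224 FPKM with PBS and 48.001 FPKM with NONOate, and endoderm and foregut markers to 613 and 159 FPKM. Which cells these transcripts came from was not tested. In bulk libraries such as these, fewer cells of a type and less RNA per cell cannot be told apart.

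EDN1, the precursor of endothelin 1, is made in vertebrate embryos by endothelial cells and by the epithelium and core mesoderm of the pharyngeal arches. The gene (ENSGALG00000012735) lies on chromosome 2, from 62756871 to 62762088 in galGal4. Its level was 3.48 FPKM (95% interval 3.05 to 3.91) in the PBS library and 12.3 FPKM (11.7 to 13.01) in the NONOate library. The NONOate library was the high one, and the intervals were far apart. The ratio of the deposited levels was 3.55 (3.10 to 4.07), and the log2 difference of FPKM + 1 was 1.58 (1.42 to 1.73). Only 160 of the 10824 measured genes had a larger difference. In the PBS library EDN1 was a low-level transcript, above 20.2% of the measured genes, and in the NONOate library it was above 59.3% of them. The widths of the intervals correspond to about 260 and 1392 fragments, so counting error was small in both.

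The other ligand genes were low in both libraries. EDN3, the precursor of endothelin 3 (ENSGALG00000028310, chromosome 20, 11142957 to 11160478), was at 0.989 FPKM (0.814 to 1.16) in the PBS library and 1.67 FPKM (1.47 to 1.86) in the NONOate library. Its log2 difference of 0.42 (0.26 to 0.59) had the same sign as that of EDN1 and was not called. The ratio of its deposited levels was 1.69 (1.36 to 2.08), and the intervals did not overlap. With a pseudocount of 0.1 FPKM, 3 endothelin family genes were called higher, EDN3 joining EDN1 and EDNRA, beside 1243 of all measured genes. EDN2, the precursor of endothelin 2 (ENSGALG00000000667, chromosome 23, 950279 to 955659), was at 0.320 FPKM (0.194 to 0.446) and 0.444 FPKM (0.328 to 0.560), below the minimum for a measured gene, and its intervals overlapped. The ligand transcripts summed to 4.79 FPKM in the PBS library and 14.5 FPKM in the NONOate library, and EDN1 made up 72.6% and 85.4% of those sums.

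**Figure D1:**
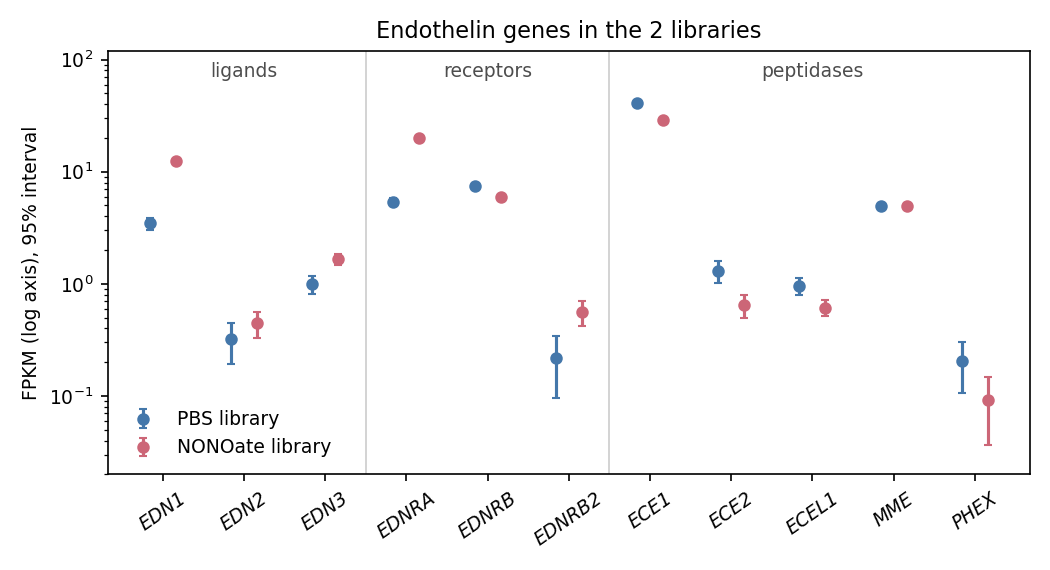
Levels of the 11 endothelin ligand, receptor and peptidase genes in FPKM on a log axis, with the PBS library in blue and the NONOate library in red; points are deposited values and bars their 95% intervals, with 1 library per group. EDN1 and EDNRA are the pair of genes above 2 FPKM that are clearly higher in the NONOate library, ECE1 is the most abundant in both, and MME is level.

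EDNRA encodes the endothelin A receptor, which in vertebrate embryos is found on neural crest-derived mesenchyme, on smooth muscle and on heart muscle. The gene (ENSGALG00000010013) lies on chromosome 4, from 31349185 to 31378701. It was at 5.39 FPKM (4.93 to 5.85) in the PBS library and 19.99 FPKM (19.3 to 20.7) in the NONOate library. The NONOate library was again the high one, with intervals far apart. The ratio of levels was 3.71 (3.38 to 4.07), and the log2 difference was 1.72 (1.60 to 1.83), with 128 measured genes showing a larger one. Its level exceeded that of 30.7% of measured genes in the PBS library and 71.8% in the NONOate library.

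EDNRB encodes the endothelin B receptor, which is expressed by endothelial cells and by migrating neural crest. The gene (ENSGALG00000016912) lies on chromosome 1, from 153125273 to 153143030. It was at 7.51 FPKM (7.11 to 7.91) in the PBS library and 5.96 FPKM (5.66 to 6.26) in the NONOate library. Here the PBS library was the higher one, by a ratio of 1.26 (1.17 to 1.35). The log2 difference was −0.29 (−0.38 to −0.20), which was not called and which 4023 measured genes lay below. EDNRB2, a further B receptor known in birds for guiding pigment cell precursors (ENSGALG00000007466, chromosome 4, 11117414 to 11126899), was at 0.220 FPKM (0.0969 to 0.342) and 0.564 FPKM (0.420 to 0.709), below the minimum for a measured gene. Its intervals did not overlap, with NONOate higher by a ratio of 2.57 (1.39 to 4.75).

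By FPKM, the receptors changed places between the libraries. EDNRA stood at 0.717 times the level of EDNRB (0.649 to 0.793) in the PBS library and at 3.35 times (3.15 to 3.57) in the NONOate library. This log2 difference of 2.22 (2.05 to 2.40) does not depend on the scaling between libraries, because both genes share it. The receptor transcripts, EDNRB2 included, summed to 13.1 FPKM in the PBS library and 26.5 FPKM in the NONOate library. EDNRA made up 41.1% of the first sum and 75.4% of the second, and EDNRB 57.3% and 22.5%. EDN1 kept step with EDNRA, at 0.645 times its level (0.555 to 0.750) in the PBS library and 0.618 times (0.579 to 0.659) in the NONOate library, ratios whose intervals overlap. Against EDNRB, EDN1 went from 0.463 times the level (0.405 to 0.530) to 2.07 times (1.92 to 2.23).

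ECE1, the membrane metalloprotease that cuts big endothelin, was the most abundant endothelin gene in both libraries. The gene (ENSGALG00000026254) lies on chromosome 21, from 6600258 to 6609039. Its level was 41.05 FPKM (39.7 to 42.4) in the PBS library and 29.1 FPKM (28.3 to 29.99) in the NONOate library. The PBS library was the higher one, by a ratio of 1.41 (1.35 to 1.47), and the intervals did not overlap. The log2 difference was −0.48 (−0.54 to −0.42), short of the 1.5-fold call, and 2904 measured genes lay below it. ECE1 exceeded EDN1 by a ratio of 11.8 (10.4 to 13.4) in the PBS library and 2.36 (2.22 to 2.51) in the NONOate library.

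None of the related peptidases was called. ECE2, a second converting enzyme, was at 1.31 FPKM (1.02 to 1.60) in the PBS library and 0.643 FPKM (0.493 to 0.794) in the NONOate library, just under the minimum mean of 1 FPKM. Its intervals did not overlap, with PBS higher by a ratio of 2.04 (1.48 to 2.82). ECEL1, a relative of the converting enzymes known from neurons, was at 0.960 FPKM (0.797 to 1.12) and 0.615 FPKM (0.518 to 0.711), and PHEX, a relative known from bone and tooth, at 0.206 FPKM (0.106 to 0.305) and 0.0912 FPKM (0.0362 to 0.146). Neither reached the minimum, though the intervals of ECEL1 did not overlap, with PBS higher by a ratio of 1.56 (1.24 to 1.97). MME, neprilysin, which breaks down endothelins and natriuretic peptides among others, was at 4.90 FPKM (4.52 to 5.28) and 4.93 FPKM (4.61 to 5.24), with a log2 difference of 0.01 (−0.11 to 0.13). Of the 11 genes of this family of ligands, receptors and peptidases, 6 were measured. With the pseudocount of 1 FPKM the called ones were EDN1 and EDNRA.

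In order of level, the PBS library ran from ECE1 through EDNRB, EDNRA, MME and EDN1 down to ECE2, EDN3, ECEL1, EDN2, EDNRB2 and PHEX. EDNRA and MME overlapped in their intervals there, as did each neighbouring pair from ECE2 to ECEL1 and from EDN2 to PHEX. In the NONOate library the order was ECE1, EDNRA, EDN1, EDNRB, MME and EDN3, each apart from the next, then ECE2, ECEL1, EDNRB2 and EDN2, whose neighbours overlapped, and PHEX. The deposited intervals of all 4 chosen genes did not overlap between the libraries, but the same was true of 70.9% of all measured genes, so it does not set them off.

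**Figure D2:**
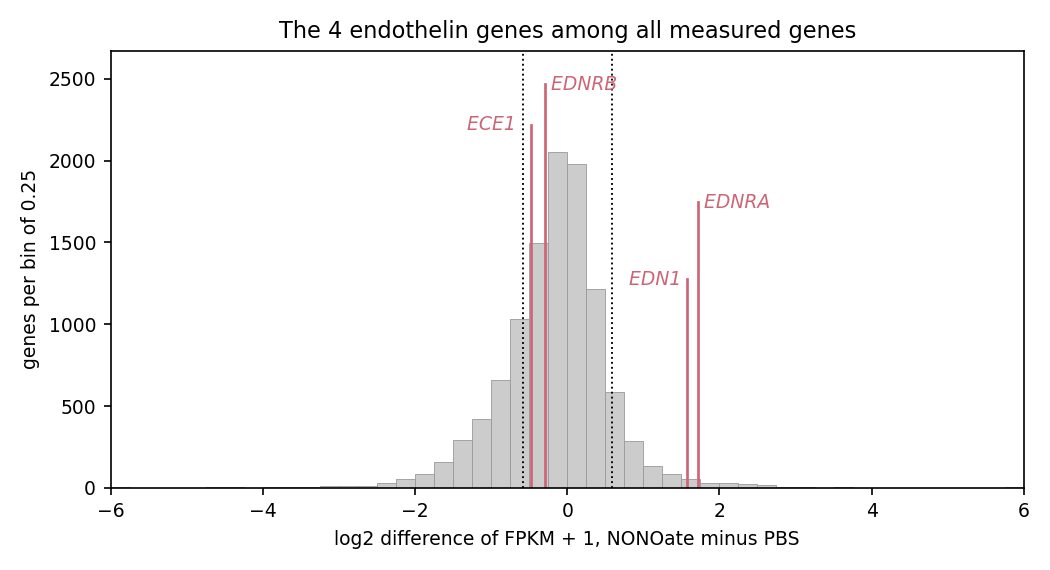
Log2 differences of FPKM + 1, NONOate minus PBS, of the 10824 measured genes in bins of 0.25 (grey bars, number of genes), with the 4 endothelin genes as red lines whose heights carry no value; dotted lines mark 1.5-fold. EDNRA at 1.72 and EDN1 at 1.58 lie in the upper tail, while EDNRB at −0.29 and ECE1 at −0.48 lie inside the dotted lines.

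No other annotated gene overlapped any of the 4 genes, so no reads of an overlapping annotated gene enter these levels. The genes next to EDN1, EDNRA and EDNRB showed no difference of the size seen at EDN1 and EDNRA. HIVEP1, 29088 bases beyond EDN1, was at 6.48 FPKM in the PBS library and 5.93 FPKM in the NONOate library. TMEM184C, 21585 bases beyond EDNRA, was at 17.1 and 15.7 FPKM in the same order. RNF219, on one side of EDNRB, was at 9.81 and 10.2 FPKM. ECE1 lay between ALPL, 2577 bases away, and EIF4G3, 26189 bases away, which were both called lower, with log2 differences of −1.08 and −1.13.

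Few measured genes with a symbol lay near EDN1 or EDNRA, which both sit in the thin upper tail of differences. Genes without a symbol, or with one that reads as a date or number, were left out of these counts. Likeness was measured as the distance between genes in log2(FPKM + 1) over the 2 libraries, and all points share the same libraries. Nearest to EDN1 were IL1RL1, ARHGAP31 and DAPK2, at distances of 0.11, 0.11 and 0.15, and 7 genes lay within 0.25. FBXL22, MICAL2 and CPE were nearest to EDNRA, at 0.10, 0.10 and 0.14, with 9 genes within 0.25. EDNRB and ECE1 sat in crowded parts of the distribution, with 303 and 106 genes within 0.25. RGS14, SEC16A and PKD2 were nearest to EDNRB, and RPIA, CCND1 and TRAPPC5 to ECE1.

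Proprotein convertases act before ECE1. Of the 4 that were measured, 2 (50%) were called lower and 0 higher, beside 22.4% and 9.59% of all measured genes. Their median log2 difference was −0.89, beside −0.11 for all genes. The value rests on few genes. Over all 6 in the files the median was −0.34. A pseudocount of 5 FPKM gave −0.47 with 1 called lower, beside 1427 of all measured genes. At a mean of at least 5 FPKM only FURIN was left, which was not called. FURIN, the convertase usually credited with making big endothelin, was at 13.2 FPKM (12.5 to 13.9) in the PBS library and 8.64 FPKM (8.21 to 9.07) in the NONOate library, a log2 difference of −0.56 that was not called. With a pseudocount of 0.1 FPKM, 3 convertases were called lower, FURIN among them, beside 2793 of all measured genes. PCSK5 and PCSK6, relatives of furin that also process growth factors of the TGF-beta family, were lower. PCSK5 was at 3.69 and 1.01 FPKM (PBS before NONOate, as in the pairs of levels below) and PCSK6 at 4.74 and 1.09 FPKM. PCSK2, a convertase of neuroendocrine granules, was at 2.22 and 3.49 FPKM and was not called as deposited, but it was the 1 member called higher under trimmed mean scaling, under upper quartile scaling and with a pseudocount of 0.1 FPKM.

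Genes of the signalling chain below the receptors, which couple to Gq and other G proteins, were called about as often as all genes. Of 17 measured members, 2 (11.8%) were called higher and 4 (23.5%) lower, beside 9.59% and 22.4% of all measured genes, and the median was 0.08. The balance turned with the settings. Under both trimmed mean and upper quartile scaling, 5 were called higher and 2 lower, and with a pseudocount of 0.1 FPKM 5 and 4. Calls over all measured genes moved as well, from 1038 higher and 2420 lower to 1567 and 1814 under trimmed mean scaling. They were 1510 and 1858 under upper quartile scaling and 1243 and 2793 with a pseudocount of 0.1 FPKM. PRKCE, a protein kinase C isoform of heart muscle, was at 2.96 FPKM (2.60 to 3.33) in the PBS library and 8.26 FPKM (7.77 to 8.76) in the NONOate library. RGS2, an inhibitor of Gq signalling, was at 4.39 FPKM (3.79 to 4.99) and 8.76 FPKM (8.11 to 9.41). RGS4, another inhibitor of G protein signalling, had the opposite direction, at 6.96 FPKM (6.28 to 7.63) and 2.25 FPKM (1.96 to 2.55). PRKCD, a further protein kinase C, was at 6.75 and 3.45 FPKM and was also called lower.

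Transcription factors and a coactivator known, mostly from mammalian cells, to act on EDN1 were mostly lower. The list does not separate those that raise EDN1 from those that lower it. Of 11 measured members, 1 (9.09%) was called higher and 7 (63.6%) lower, beside 9.59% and 22.4% of all measured genes. The median was −0.81. FOS and JUN, which pair as AP-1, had log2 differences of −1.68 (−1.92 to −1.43) and −1.57 (−1.67 to −1.48). FOS was at 23.4 FPKM in the PBS library and 6.62 FPKM in the NONOate library, and JUN at 117 and 38.6 FPKM. GATA2, a factor of endothelial and blood cells, was at 17.8 and 4.83 FPKM, and KLF4, a factor induced by flow in endothelium, at 2.21 and 0.517 FPKM. The 1 higher member, named after its value was seen, was the heart factor GATA4, at 16.3 and 32.2 FPKM.

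Genes known, mainly from mouse and zebrafish, to act in or below EDN1 and EDNRA signalling in the pharyngeal arches were also mostly lower among those measured. Of 10 measured members, 1 (10%) was called higher and 7 (70%) lower, beside 9.59% and 22.4% of all measured genes. The median was −1.20. Over all 13 in the files, the 3 below the minimum level included, 2 were called higher and 7 lower, and the median was −0.67. Without that minimum, 1109 genes of the whole series were called higher and 2630 lower. DLX5 and DLX3, which give the lower jaw its identity, were at 14.4 and 3.79 FPKM and at 8.69 and 1.26 FPKM. MSX1 (134 and 8.71 FPKM) and TWIST1 (11.6 and 2.89 FPKM), factors of arch mesenchyme, had log2 differences of −3.80 and −1.70. The 1 higher member was MEF2C, which also acts in heart muscle, at 6.74 and 16.1 FPKM; it was named after its value was seen.

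Markers of cell types that carry endothelin genes differed as well, and their part in the results was not tested. Of 18 measured endothelial and endocardial markers, 8 (44.4%) were called higher and 3 (16.7%) lower, beside 9.59% and 22.4% of all measured genes. The median was 0.23. The balance depended on the settings. At a 2-fold call 2 were higher and 3 lower, beside 395 and 1115 of all measured genes. With a pseudocount of 5 FPKM 5 were higher and 3 lower, beside 580 and 1427. At a mean of at least 5 FPKM the median was 0.11. PECAM1 and CDH5, adhesion proteins of endothelium, were at 7.72 and 21.8 FPKM and at 23.6 and 45.5 FPKM. NFATC1, a factor of the endocardium, was at 1.74 and 9.17 FPKM, while LMO2, shared with blood precursors, was at 33.9 and 9.56 FPKM and CLDN5, an endothelial tight junction protein, at 19.6 and 5.73 FPKM. The markers found in the files summed to 234 FPKM in the PBS library and 269 FPKM in the NONOate library, and 0 were at 0. EDN1 had a larger difference than 17 of the 18, and its difference was 1.34 above their median. EDNRB, which endothelium also expresses, lay 0.52 below that median.

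Most heart muscle markers had larger differences than EDN1 and EDNRA. Of 14 measured markers, 11 (78.6%) were called higher and 0 lower, beside 9.59% and 22.4% of all measured genes. These markers had a median of 2.41 and summed to 2878 FPKM in the PBS library and 16925 FPKM in the NONOate library. TNNT2, cardiac troponin T, was at 604 and 3189 FPKM. The difference of EDNRA was 0.70 below the median of this list and that of EDN1 0.84 below it, and 11 of the 14 markers lay above both genes. Erythroid markers were higher too, with 6 of 6 measured members called and a median of 3.60. A gene could pass the minimum through its NONOate level alone. Over all 9 in the files, the 3 below the minimum included, 6 were called higher and the median was 2.55. Without the minimum, 1109 genes of the whole series were called higher. The 9 erythroid markers summed to 263 and 3415 FPKM, and 1 of them, HBZ, was at 0 in the PBS library.

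Of 15 measured neural crest markers, 11 (73.3%) were called lower and 0 higher, beside 22.4% and 9.59% of all measured genes. These markers had a median of −0.80 and summed to 133 FPKM in the PBS library and 51.1 FPKM in the NONOate library. SOX10, a factor of migrating crest in which endothelin B receptors are expressed, was at 14.2 FPKM (13.5 to 15.0) and 0.836 FPKM (0.701 to 0.972), a log2 difference of −3.05 (−3.18 to −2.92). PAX3, SOX8 and PAX7, other crest factors, had −2.69, −2.82 and −2.43. At the other end, MITF, a factor of pigment cells named after its value was seen, stood at 4.05 and 6.53 FPKM, and its log2 difference of 0.58 was just short of the call. With a pseudocount of 0.1 FPKM the median was −1.33 with 1 marker called higher and 12 lower, beside 1243 and 2793 of all measured genes. Under both trimmed mean and upper quartile scaling 1 marker was called higher and 10 lower. Over all measured genes these scalings gave 1567 higher and 1814 lower, and 1510 and 1858. Of the crest markers, 0 were at 0 in either library. The difference of EDNRB lay 0.52 above the median of the crest list, and 13 of its 15 measured markers lay below EDNRB. For EDNRA, all 15 measured crest markers lay below it.

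**Figure D3:**
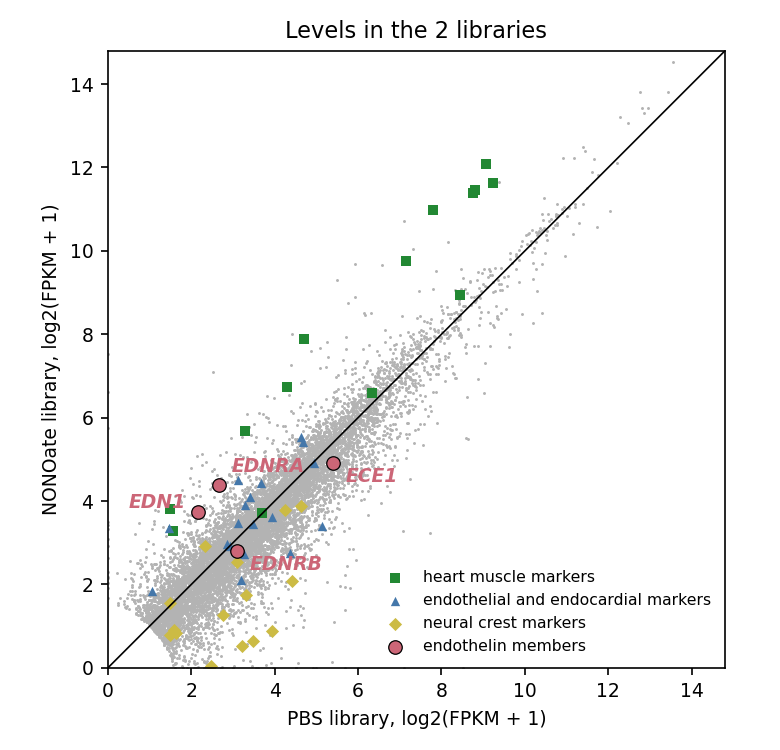
Levels of all 10824 measured genes as log2(FPKM + 1), PBS library on the x axis and NONOate library on the y axis, with the line of equal level; green squares are heart muscle markers, blue triangles endothelial and endocardial markers, yellow diamonds neural crest markers and red circles the 4 endothelin genes. EDN1 and EDNRA lie above the line, and EDNRB and ECE1 slightly below it.

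For the next lists, the shares of all measured genes called were 9.59% higher and 22.4% lower. Cushion mesenchyme and smooth muscle markers, cells in which EDNRA is known, had a median of −0.22, and of −0.04 under trimmed mean scaling. Of 10 measured members, 1 (10%) was called higher and 4 (40%) lower. VCAN, a matrix proteoglycan of the cushions, was at 21.5 and 43.7 FPKM, and TBX3, PDGFRA and TWIST1 were lower. They summed to 190.02 FPKM in the PBS library and 185 FPKM in the NONOate library, and all 10 lay below EDNRA in their difference. The median for epicardial and proepicardial markers was −0.84, with 4 of 7 called lower and 0 higher, and UPK3B was listed at 0 in the NONOate library. With a pseudocount of 5 FPKM this median was −0.33 with 2 called lower, beside 1427 of all measured genes. At a mean of at least 5 FPKM it was −0.41 with 1 called lower, beside 1619 of all genes with such a mean. For neural tissue the median was −2.25, with 7 of 8 called lower, and the endoderm and foregut list −1.99 with 5 of 6 called lower; 0 members of either were called higher. A gene could pass the minimum through its PBS level alone. With no filter on low values, the median was −0.62 for the epicardial list, −2.23 for neural tissue and −1.97 for endoderm and foregut. The epicardial list summed to 76.3 and 54.7 FPKM. Of the neural and endoderm lists, 0 markers were at 0.

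**Figure D4:**
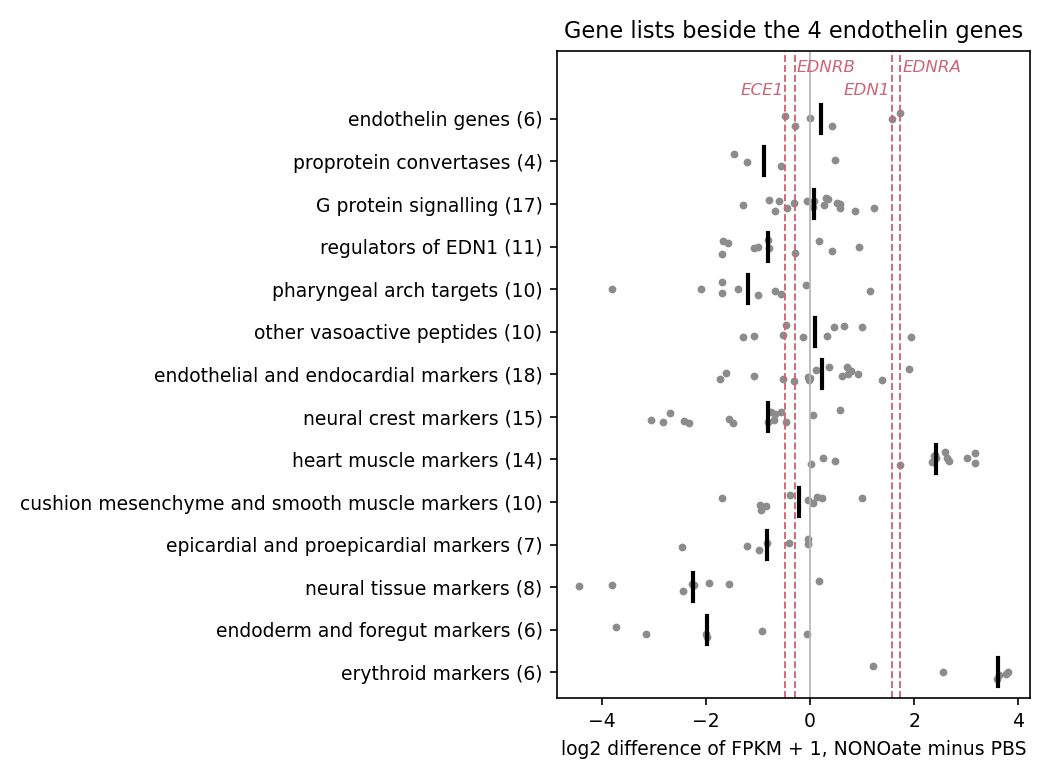
Log2 differences of FPKM + 1, NONOate minus PBS, of the measured members of each gene list (grey points, number of members in parentheses; points are spread vertically for sight only), with black bars at list medians and dashed red lines at the 4 endothelin genes. Heart muscle and erythroid markers have medians of 2.41 and 3.60, to the right of EDN1 and EDNRA, and neural tissue and endoderm markers have −2.25 and −1.99.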

How the data were processed

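RNA of 1 pool of 10 hearts per group was sequenced, mapped to galGal4 (Ensembl release 81) using STAR 2.4.2a and quantified by Cufflinks 2.2.1, per the series' design text and the submitters' processing notes. The deposited values are the authors' FPKM per gene with 95% intervals, for 17108 genes per library, with 0 marked as failed. Their sums were 487268 FPKM for PBS and 536333 FPKM for NONOate. RNA selection and strandedness are not given in the sources used here.

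Here rows were joined by gene ID and rows with the same symbol summed, which gave 16737 genes. Each interval was read as 2 SD on each side. Intervals of differences combine both libraries' SDs, and the squared ratio of FPKM to SD gives the implied fragments, 18246222 for PBS and 28767956 for NONOate. They cover counting and assignment error only. Genes averaging 1 FPKM or more were kept, and a pseudocount of 1 FPKM was used. Starts in the files count from 0, since on that reading 10 of 12 mitochondrial coding genes have a length divisible by 3 and on the other 0, so 1 was added. Python 3.11.15 with pandas 2.3.3 was used, and the calls and intervals were tested on simulated data. The simulation held counting error only, so it checks the computation and not the spread between pools.

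The 14 gene lists were matched by symbol without regard to case or hyphens. A listed gene that is not reported here was left out of its list. The endothelin genes and the lists were chosen with earlier results of these data known. Genes were named by a rule: all endothelin family genes, up to 4 members of each other list with the largest absolute differences, PECAM1, CDH5, SOX10 and TNNT2, and the 3 genes nearest in pattern to each of the 4 genes. Others are named to identify a count of few genes, a listed 0 or a place beside a member. Alternatives were other pseudocounts, scalings, filters, a 2-fold call and rows kept apart.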

Additional observations from a re-analysis of the deposited data

How the results depend on the processing

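With 1 library per group no library could be left out. No paired analysis was possible because each group has 1 library and no test. Under 5 other pseudocounts and scalings, the 4 genes gave 20 values, of which 20 kept their sign and 20 their side of the 1.5-fold call. Most of these signs were fixed in advance. A pseudocount cannot change the sign of a gene's difference, and each scaling raised the NONOate levels, so EDN1 and EDNRA could only rise. Only the scaled values of EDNRB and ECE1 were free to change sign. With a pseudocount of 0.1 FPKM, EDN1 was at 1.80 and EDNRA at 1.87. With a pseudocount of 5 FPKM, EDN1 was at 1.03, EDNRA at 1.27 and EDNRB at −0.19, since a larger pseudocount shrinks differences of low genes by construction. Trimmed mean scaling gave 1.75 for EDN1, 1.90 for EDNRA, −0.13 for EDNRB and −0.30 for ECE1, and upper quartile scaling gave 1.74, 1.88, −0.14 and −0.31. Adding 1 FPKM to both receptors put the log2 difference of the EDNRA to EDNRB ratio at 2.01. Genes called numbered 580 higher and 1427 lower with a pseudocount of 5 FPKM, and 1243 and 2793 with 0.1 FPKM. They numbered 395 and 1115 at 2-fold, 1567 and 1814 with trimmed mean scaling, and 1510 and 1858 with upper quartile scaling. Without a filter on low values they numbered 1109 and 2630, and at a mean of at least 5 FPKM 742 and 1619. Of 126 list medians under alternatives, 125 kept their sign. The 14 of these at 2-fold could not change, because that setting alters only the call. The exception was the list of other vasoactive peptides at −0.03 with no filter on low values. Sign alone understates the shifts. Of the 126 medians, 50 moved by at least the median 1-sided width of the intervals of their genes. Of 252 counts of called list members, 216 stayed within 1.5 times, a number that includes counts of 0 that stayed at 0. The design gives no estimate of the spread between pools, and the levels of EDN2, EDNRB2 and PHEX, all under 1 FPKM, rest on 11 to 61 implied fragments.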

Other observations

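Other peptide systems that act on vessels and heart differed gene by gene. Of 10 measured genes of this kind, 3 (30%) were called higher in the NONOate library and 2 (20%) lower, beside 9.59% and 22.4% of all measured genes. The median log2 difference was 0.09 beside −0.11 for all genes, and 10 more genes of this kind were below the minimum level. With those included, 5 were called higher and 3 lower, and the median was −0.03. Without the filter, 1109 genes of the whole series were called higher and 2630 lower. Of those calls 29.7% were higher, beside 30.02% with the filter. NPPB, a natriuretic peptide of heart muscle, was at 51.0 FPKM in the PBS library and 199 FPKM in the NONOate library, and it was the 1 measured gene of the list with a larger difference than EDNRA. ADM, adrenomedullin, a dilating peptide, was at 3.55 FPKM (95% interval 2.75 to 4.35) and 8.04 FPKM (7.12 to 8.96), and the third higher gene, ACE, which makes angiotensin II and was named after its value was seen, was at 9.08 and 14.9 FPKM. APLNR, the apelin receptor, was at 49.9 and 19.9 FPKM, and NPR3, the clearance receptor for natriuretic peptides, at 6.03 and 2.33 FPKM.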
